A study of Macaca mulatta with 2 samples.

Results

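The 31 genes described here make up the antigen presentation machinery as the array names it. They were taken by gene name from the gene probes of both arrays, and all 31 were present, among 21495 gene symbols in all, with 69 probes between them. Class I held 6 genes, class II 14 and antigen processing 9, and the transcriptional regulators CIITA and NLRC5 were kept apart. The data are 2 one-colour arrays of RNA from primary Sertoli cell cultures of rhesus macaque (Macaca mulatta) testis. The infant culture came from males younger than 3 months. The pubertal culture came from males of 18 to 22 months that had received gonadotropin-releasing hormone (GnRH) through a catheter, at 0.15 µg/min for 2 min with an interval of 3 h, over 4 to 5 weeks. Both cultures had 12 h of 5 ng/ml follicle-stimulating hormone (FSH) with 100 nM testosterone, so no culture without hormone stands beside them. With 1 array per group no difference carries a test, and age, GnRH, donor and culture cannot be told apart.

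Class I molecules pair a heavy chain with beta-2-microglobulin and show peptides from inside the cell to cytotoxic T cells and natural killer cells. The peptides are cut by the proteasome, carried into the endoplasmic reticulum by the TAP transporter and loaded with the help of tapasin. Class II molecules pair an alpha with a beta chain, travel with the invariant chain CD74, and are loaded in endosomes by DM, which DO holds back. They are made mainly by macrophages, dendritic cells and B cells, and by other cells under interferon gamma through CIITA. The seminiferous tubule is known as a site of restrained immune response, and macrophages lie around it. In macaques the class I and DRB genes are duplicated and vary between animals, and there is no C gene, so a human probe need not read only the gene it is named for.

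Each value is a log2 signal minus its own array's 75th percentile, and differences are pubertal minus infant, with the error that the scanner software assigns to the spots. That error covers the array and not the culture. A probe counted as detected where it was flagged well above background, as were 54.9% of pubertal and 54.8% of infant gene spots, with 0 saturated. Across the 14243 genes detected on both arrays the median difference was -0.06. The 12 Sertoli cell markers, among them SOX9, WT1 and AMH, were all detected on both arrays. Of 9 germ cell markers, 9 were detected in the pubertal culture and 5 in the infant one. Of 6 Leydig cell markers 5 were detected on each, with a summed signal 0.307 times as high on the pubertal array. The summed signals of the Sertoli, germ cell and peritubular markers were 2.58, 2.24 and 1.86 times as high there.

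Most class I probes lay within 2-fold between the arrays. Signals of several class II beta chains were higher on the pubertal array, and most processing genes lay slightly below 0, with IFI30 well below. Of the 31 genes, 24 were detected on both arrays, 3 on the pubertal array alone, 2 on the infant array alone and 2 on neither. Of the 24, HLA-DQB1, HLA-DRB3, HLA-DRB4 and HLA-G, 4 in all, had a pubertal signal 2-fold or more above the infant one, against 7.32% of all genes. Another 2 were at least 2-fold lower (IFI30 and HLA-DOB), against 6.32% of all genes, so that count is near the background. Detection on the pubertal array alone, in 3 of the 29 members detected at all, compares with 5.71% of all detected genes, and detection on the infant array alone, in 2 of 29, with 4.26%. The median difference was -0.06 over 6 class I genes, 0.33 over 9 class II genes and -0.29 over 8 processing genes. A gene that is dim on the infant array enters these medians only if it is detected there, so the 9 class II genes are not the whole list of 14.

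**Figure D1:**
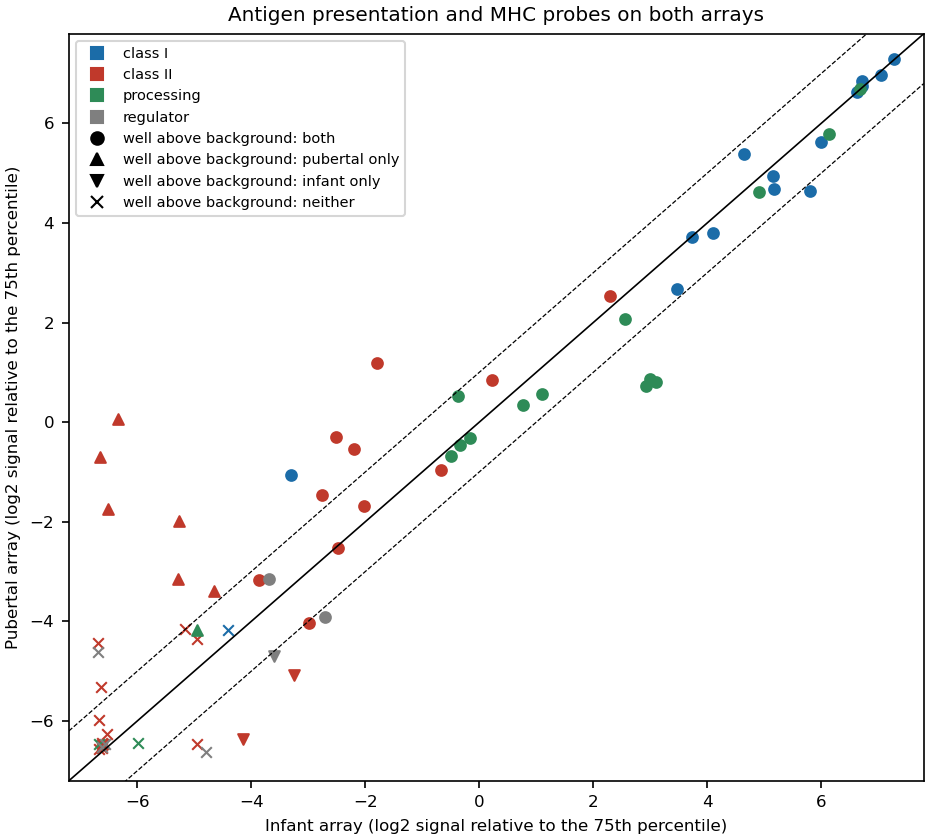
Each point is a probe of an antigen presentation or MHC gene, with its log2 signal relative to the 75th percentile on the infant array (x axis) and the pubertal array (y axis). Colours give the list and symbols give on which array the probe was well above background. The solid line marks equal signals and the dashed lines 2-fold differences. Most class I probes lie between the dashed lines, while several class II probes stand above the upper one and the 3 IFI30 probes lie below the lower one.

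Among the class II genes detected on both arrays, the 3 at least 2-fold higher were beta chains of the DR and DQ molecules. HLA-DRB1, also a beta chain, differed by 0.22, and the alpha chain HLA-DPA1 was detected on the pubertal array alone. The probes named for the DR, DQ and DP beta chains are shown first because the values below come from these stretches of sequence. The probes are printed 5′ to 3′ as the files give them. The files list all 69 probes as unmapped on human build hg18, so no position is given. The probes of HLA-DRB4 and HLA-DRB5 share the run of 20 bases set in capitals, and 90.7% of the bases in their overlap of 54.
HLA-DRB4: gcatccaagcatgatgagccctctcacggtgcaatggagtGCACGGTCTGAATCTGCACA
HLA-DRB5: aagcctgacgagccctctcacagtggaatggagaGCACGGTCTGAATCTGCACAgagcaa
These genes belong to the same family, and how far either probe reads the other's transcripts was not tested. The probes of HLA-DQB1, HLA-DRB1, HLA-DRB3 and HLA-DPB1 with the values below shared no run of 15 bases or more with another member's probe.
HLA-DQB1: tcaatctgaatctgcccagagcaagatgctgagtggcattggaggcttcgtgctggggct
HLA-DRB1: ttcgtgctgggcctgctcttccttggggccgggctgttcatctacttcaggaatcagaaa
HLA-DRB3, brighter on the pubertal array: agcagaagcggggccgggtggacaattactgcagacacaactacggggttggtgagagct
HLA-DRB3, dimmer there: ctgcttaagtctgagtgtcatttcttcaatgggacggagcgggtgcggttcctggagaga
HLA-DPB1: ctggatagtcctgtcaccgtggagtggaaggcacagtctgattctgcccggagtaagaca

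HLA-DQB1, the beta chain of the DQ molecule, had the largest difference among the 24 members detected on both arrays. The probe shown read 1.19 in the pubertal and -1.79 in the infant culture, a difference of 2.98 ± 0.21 (7.88-fold). It was the only 1 of the 4 HLA-DQB1 probes detected on both arrays. A second probe was detected on the pubertal array alone, at 0.06, and its difference was at least 4.43 (21.5-fold). The other 2 were well above background on neither array. The value therefore rests on 1 probe with a second in the same direction. Under the weaker detection flag, which lets in 1 of the dim probes, the gene's difference was 1.79.

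The DRB genes, which encode the variable beta chain of the DR molecule, all had positive differences of unequal size. HLA-DRB3 read -0.29 and -0.54 with its probes in the pubertal culture, against -2.51 and -2.20 in the infant one. The gene's difference was 1.94 ± 0.15 (3.83-fold), from 2.22 and 1.66. HLA-DRB4 read -1.45 (pubertal) and -2.76 (infant), a difference of 1.30 ± 0.23 (2.47-fold). By these probes both were higher on the pubertal array by more than the scanner error. Neither name was matched to a macaque gene, and which transcripts the probes read was not tested.

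HLA-DRB5, by the probe that shares its wording with HLA-DRB4, read 0.85 and 0.22, a difference of 0.63 ± 0.20 (1.55-fold). Its other probe was detected on the pubertal array alone, at -0.69, and differed by at least 3.67 (12.7-fold). HLA-DRB1 read 2.53 and 2.30, a difference of 0.22 ± 0.20 (1.17-fold), about the size of its error. The probes named for this family thus spanned 0.22 to 2.22 where detected on both arrays.

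The DP molecule was seen on the pubertal array alone. HLA-DPB1, its beta chain, read -1.99 with the probe shown, where the infant array was not well above background, and the difference was at least 2.37 (5.18-fold). The other HLA-DPB1 probe read -3.14 there and differed by at least 1.22 (2.33-fold). HLA-DPA1, the alpha chain, was detected with 1 of 2 probes at -3.39, near the lowest detected signal of -4.29, and differed by at least 0.97 (1.96-fold). Probes named for both chains of DP were thus on the same side, though HLA-DPB1 was not matched to a macaque gene.

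For the alpha chains of DR and DQ the probes gave little to compare. HLA-DRA, the near-invariant partner of every DR beta chain, had 1 probe, which was well above background on neither array and so gives no direction. Of 4 HLA-DQA1 probes, only 1 was detected, in the infant culture, at -3.25, with the pubertal array lower by at least 1.04 (2.06-fold). CD74, the invariant chain, also had 1 probe, again well above background on neither array. Of the 6 beta chains, 5 were detected on both arrays with a median difference of 1.30, all positive and 3 at least 2-fold higher, and of the 3 alpha chains none was. This division was made after the values were seen. How well the human HLA-DRA and CD74 probes match the monkey transcripts was not tested.

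DM and DO, which load peptide onto class II in endosomes and hold that loading back, were dim and had no shared direction. HLA-DMA read -2.53 and -3.17 with its probes in the pubertal culture, against -2.49 and -3.87 in the infant one, and the gene's difference was 0.33 ± 0.20. HLA-DMB read -1.69 and -2.02, a difference of 0.33 ± 0.22. Both differences were near the scanner error.

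HLA-DOB read -4.03 (pubertal) and -2.98 (infant), a difference of -1.05 ± 0.35 (2.07-fold lower). This rests on 1 of 2 probes, with the pubertal value near the lowest detected signal of -4.29. HLA-DOA read -0.96 and -0.66 with the 1 of 5 probes detected on both arrays, a difference of -0.30 ± 0.21. Its other probes disagreed: 1 was detected on the pubertal array alone (at least 2.63 higher) but lay in a disturbed area of the slide, and 1 on the infant array alone (at least 0.14 lower on the pubertal array). No direction is given for HLA-DOA.

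**Figure D2:**
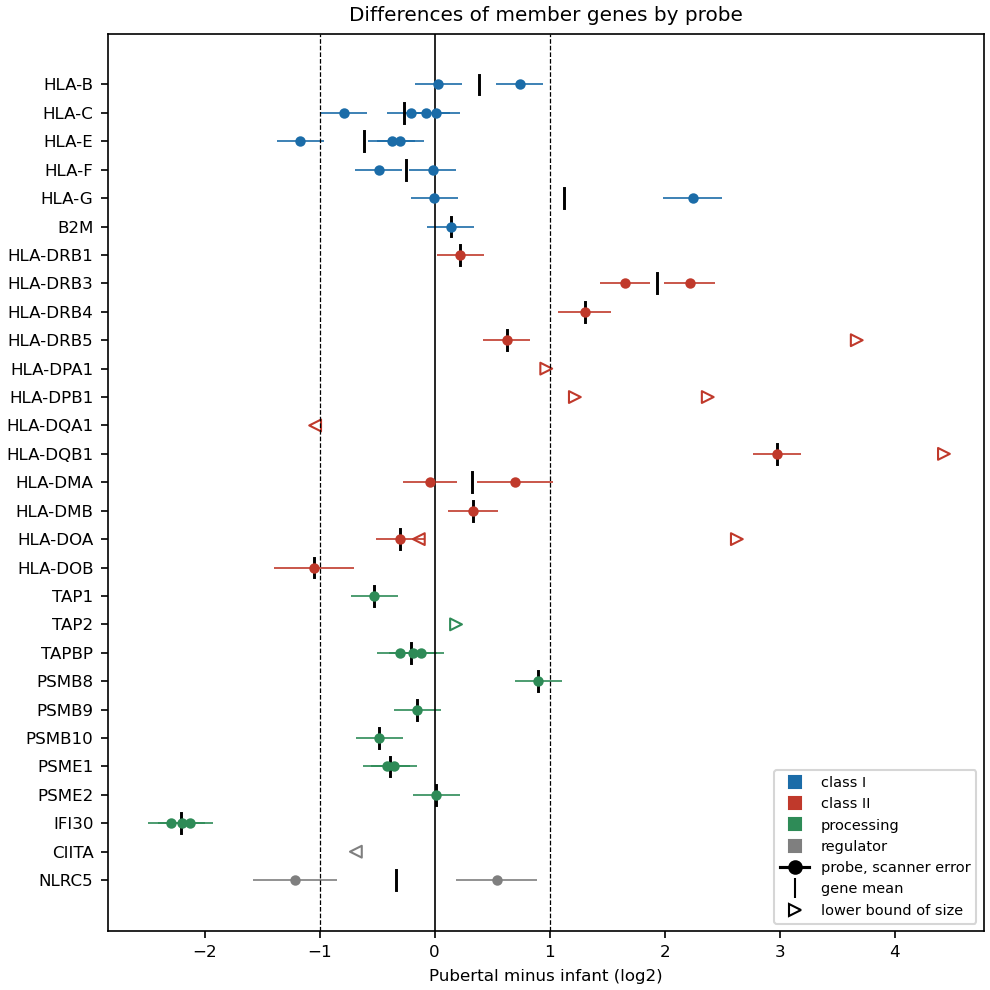
Differences, pubertal minus infant on the log2 scale, for the member genes detected on at least 1 array. Filled points are probes detected on both arrays with the scanner's error, black ticks are gene means, open triangles are lower bounds from probes detected on 1 array and point away from 0, and dashed lines mark 2-fold. HLA-DQB1 and HLA-DRB3 lie to the right, IFI30 to the left at -2.21, and most class I and proteasome genes between the dashed lines.

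Most class I signals lay within 2-fold between the cultures, with 14 of 15 probes detected on both arrays. The brightest probe, named for HLA-C, had deposited intensities of 63997 (pubertal) and 59659 (infant), with no spot flagged as saturated. Whether differences are narrowed at such bright signals was not tested. Dimmer probes of HLA-B, HLA-C and HLA-G differed more (0.74, -0.79 and 2.24), while of the HLA-F probes the brighter differed more. B2M, the light chain, read 6.85 (pubertal) and 6.71 (infant), a difference of 0.14 ± 0.20. HLA-B, a classical heavy chain, read 6.75 and 6.72 with the brighter probe and 5.38 and 4.64 with the other, so its probes gave 0.03 and 0.74 and the gene 0.38 ± 0.14. The 4 probes named for HLA-C gave -0.79 to 0.01, with a mean of -0.26 ± 0.10. None of B2M, HLA-B and HLA-C reached 2-fold as a gene.

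HLA-E and HLA-F, non-classical heavy chains, had slightly lower signals on the pubertal array. HLA-E, which shows leader peptides of other class I chains to natural killer cell receptors, averaged 4.69 (pubertal) and 5.30 (infant) over its probes. The gene's difference was -0.61 ± 0.12 (1.53-fold lower), and the 3 probes gave -0.37, -1.17 and -0.30. HLA-F gave -0.02 and -0.49 with its probes, and -0.25 ± 0.14 as a gene. A member's probes thus spread by more than the scanner error, with an SD of 0.48 for HLA-E.

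The probes of HLA-B and HLA-F that differed by 0.74 and -0.02 are shown because they are alike in 89.1% of their overlap of 55 bases, with the longest shared run in capitals.
HLA-B: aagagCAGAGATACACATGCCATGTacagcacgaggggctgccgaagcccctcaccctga
HLA-F: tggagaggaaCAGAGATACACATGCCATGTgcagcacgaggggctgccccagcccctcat
In all, 4 of 15 class I probes and 2 of 31 class II probes shared a run of at least 20 bases with the probe of a differently named gene on the array, and 0 of 16 processing probes did.

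HLA-G, a non-classical chain known from the human placenta, was at least 2-fold higher only as a mean of probes that disagreed. No macaque gene was matched to this name, and which transcripts the probes read was not tested. The bright probe read 6.63 on both arrays, with a difference of -0.0017 ± 0.20. The dim probe read -1.06 (pubertal) and -3.30 (infant), a difference of 2.24 ± 0.26 (4.73-fold). Their mean was 1.12, with an SD of 1.59 between the probes, so the 2-fold call for HLA-G rests on the dim probe alone.

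Among the processing genes the proteasome parts and the peptide transporter stayed within 2-fold. PSMB8, PSMB9 and PSMB10 are the catalytic subunits that interferon exchanges into the proteasome to make the immunoproteasome. PSMB8 read 0.53 and -0.37, a difference of 0.90 ± 0.21 (1.87-fold). PSMB9 gave -0.15 ± 0.21, with -0.32 and -0.17, and PSMB10 gave -0.48 ± 0.20, with 2.07 and 2.56. PSMB8 alone of the 3 was higher on the pubertal array.

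Set against the constitutive subunits that they replace, the gap was 1.16 ± 0.29 for PSMB8 over PSMB5, 0.03 ± 0.29 for PSMB9 over PSMB6 and -0.09 ± 0.29 for PSMB10 over PSMB7. These gaps are differences of differences, which no single factor per array can move. Over the alternatives run they lay between 0.88 and 1.16 for PSMB8, between -0.20 and 0.05 for PSMB9 and between -0.33 and -0.04 for PSMB10, so the sign for PSMB9 was not fixed. The constitutive subunits themselves differed by -0.26 (PSMB5), -0.18 (PSMB6) and -0.39 (PSMB7). Each value rests on 1 probe per gene.

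The subunits of the PA28 activator, which opens the proteasome for peptide release, stayed within 2-fold. PSME1 read 5.79 and 6.14 with the brighter probe and gave -0.38 ± 0.14 over its 2 probes, both lower on the pubertal array. PSME2 read 6.69 and 6.68, a difference of 0.01 ± 0.20.

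TAP1, a subunit of the peptide transporter, had deposited intensities of 606 (pubertal) and 821 (infant). After each array's 75th percentile was subtracted on the log2 scale, the difference was -0.53 ± 0.20. TAP2, the other subunit, was detected with 1 of 2 probes on the pubertal array alone, at -4.18, with a difference of at least 0.19 (1.14-fold). TAPBP, which encodes tapasin, gave -0.20 ± 0.12 from 3 probes between -0.30 and -0.12. In the macaque assembly T2T-MMU8v2.0, PSMB9, TAP1, PSMB8 and TAP2 follow each other in this order among protein-coding genes, between MAMU-DMB and MAMU-DOB. Over that row of neighbours the differences were -0.15, -0.53, 0.90 and, for TAP2, at least 0.19.

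IFI30, the lysosomal thiol reductase GILT that unfolds antigens for class II loading, lay on the other side from the class II beta chains. Its probes read 0.82, 0.87 and 0.72 in the pubertal culture, against 3.11, 3.00 and 2.92 in the infant one. The gene's difference was -2.21 ± 0.12 (4.61-fold lower on the pubertal array), with a range of -2.29 to -2.13. The 3 probes all hold the 28 bases GATCAAGAATCCTGCTCCACTAAGAATG, and 2 of them share 59 bases, so they are not independent readings of the transcript.

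The regulators were at the edge of detection. CIITA, which switches on class II transcription, was seen with 1 of 4 probes, in the infant culture alone and at -3.60, and the pubertal array was lower by at least 0.69 (1.61-fold). NLRC5, which does the same for class I, read -3.15 and -3.92 with its probes in the pubertal culture, against -3.69 and -2.70 in the infant one. Those probes gave 0.54 and -1.21, opposite in sign, so no direction is given for it.

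The other genes of the pathway were taken from 7 lists. Of their 78 genes detected on both arrays 7 were at least 2-fold higher and 3 lower, against the 7.32% and 6.32% of all genes, so these counts are near or below the background and show nothing particular to the pathway. Of 9 measured peptide loading and trimming genes and 17 proteasome genes none did, with medians of -0.27 and -0.21. The disulphide isomerase PDIA3 of the loading complex differed by -0.88 (-1.04 with median scaling, past 2-fold), the chaperone HSPA5 by -0.68 and SEC61G by -0.45. PSME3 was at -0.52, PSMA7 at -0.42 and PSMB1 at -0.41.

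Of 8 measured class II proteases and endosomal genes 2 were at least 2-fold higher, with a median of 0.14. Cathepsin V, named CTSL2 here, read 0.69 and -2.12, a difference of 2.81 ± 0.21 (7.02-fold). Its inhibitor cystatin C, CST3, differed by 1.90 ± 0.20 and cathepsin B, CTSB, by -0.76, with probes from -1.94 to -0.04. CTSS, the cathepsin that trims CD74 in antigen-presenting cells, was well above background on neither array.

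Of 21 measured regulators and interferon-gamma signalling genes, 1 passed 2-fold upwards and 2 downwards, and the list's median was -0.11. RFXAP, part of the RFX complex on class II promoters, differed by 1.51 ± 0.24, while RFX5 differed by 0.22 and RFXANK by -0.05. The interferon receptor chain IFNAR1 read -2.63 (pubertal) and -1.28 (infant), a difference of -1.36 ± 0.23. With normexp RFXAP was at 0.86 and IFNAR1 at -0.79, both short of 2-fold. IRF8, a factor of myeloid cells, was detected on the pubertal array alone (at least 1.36 higher).

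Among other MHC genes, 2 of the 4 measured were at least 2-fold higher. HLA-DQB2 differed by 2.77 ± 0.25 and the pseudogene HLA-L by 1.58 ± 0.22, with HCP5 at 0.11. HLA-DQB2 is a close relative of HLA-DQB1, and whether its probe also reads HLA-DQB1 transcripts was not tested. Of 9 measured MHC-like genes the ligand ULBP3 of NKG2D was at least 2-fold higher (1.21 ± 0.35), ahead of MR1 at 0.67 and PROCR at -0.58. Of 10 costimulation genes LGALS9 was higher by 1.08 ± 0.20 and the adhesion molecule ICAM1 lower, at -1.07 ± 0.11, with CD276 at -0.81. LGALS9 was at 0.05 with the weaker detection flag, with no filter and with the median of all probes, and ICAM1 at -0.67 with no filter. ULBP3 was at 0.38 with normexp, and HLA-L at 0.09 with the median of all probes, so these 4 calls rest on the setting.

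Several macrophage markers were higher on the same array as the class II beta chains. Of 15 macrophage markers 11 were detected in the pubertal and 8 in the infant culture, and their summed signal, in units of the 75th percentile, was 6.55 against 2.20, or 2.97 times as high. CD163 made up 3.15 of the first sum and 0.371 of the second, and without it the ratio was 1.86. The ratio for the Sertoli markers, 2.58, lay between these values, so a higher sum was not particular to macrophage markers. The haemoglobin scavenger receptor CD163 read 1.65 and -1.43, a difference of 3.09 ± 0.21 (8.49-fold). The growth factor receptor CSF1R was higher by 2.07 ± 0.24, the leukocyte phosphatase PTPRC by 1.99 ± 0.24 and the adaptor TYROBP by 1.32 ± 0.23. MRC1, AIF1 and C1QB were detected on the pubertal array alone. FCER1G differed by 0.0049, ITGAM by -0.08 and CD68 by -0.94, while C1QA, C1QC, LYZ and MSR1 were well above background on neither array. The part of these markers in the class II values was not tested. In RNA from a whole culture, fewer cells of a type and less RNA per cell cannot be told apart.

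The summed signals of dendritic and B cell markers, of other cells that make class II, differed less than the macrophage sum. Of 8 dendritic cell markers on the array 4 were detected in the pubertal and 5 in the infant culture, with summed signals of 7.18 and 5.56, and FLT3 and CLEC9A were detected on neither. Of 7 B cell markers 3 were detected on each array, with sums of 8.05 and 6.93. Most of each sum came from CD79A, whose log2 signals were 2.96 and 2.74. MS4A1 and CD79B were detected on neither array. T and natural killer cell markers, 3 of 8 on each array, summed to 0.393 and 0.734. Of 7 endothelial markers 5 and 4 were detected, with sums of 2.25 and 1.01, or 2.23 times as high on the pubertal array. That ratio lay between the macrophage ratios with and without CD163, 2.97 and 1.86. The 4 endothelial markers detected on both arrays were all higher on the pubertal array. The part of these markers was likewise not tested.

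**Figure D3:**
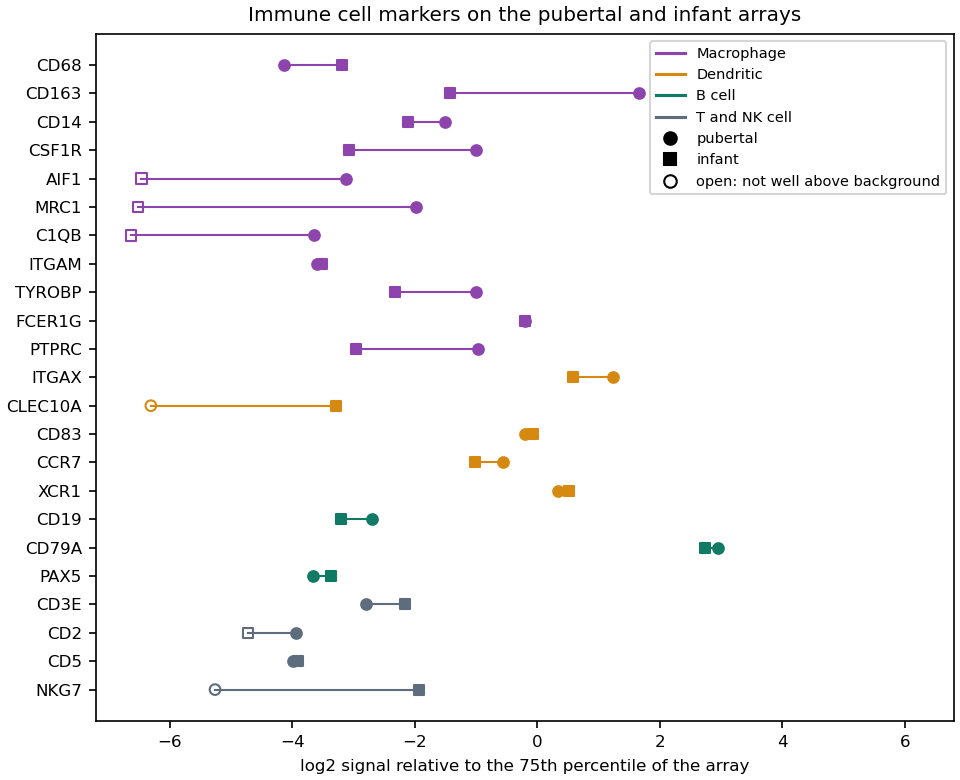
Markers of macrophages, dendritic cells, B cells and T or natural killer cells that were detected on at least 1 array, with the log2 signal relative to the 75th percentile on the pubertal array (circles) and the infant array (squares). Open symbols were not well above background. CD163, CSF1R, PTPRC, MRC1, AIF1 and C1QB lie further right on the pubertal array, whereas CD79A, CD83 and FCER1G lie at nearly the same place on both. NKG7, CLEC10A, CD68 and CD3E lie further left on the pubertal array.

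The 3 lists had the same order of medians in all 13 processing alternatives run, though some of these could not change it. Median scaling, the percentile over detected probes and the spike-in scale rescale a whole array, so the order was fixed there. With the filter at the median signal the class II median rested on 2 genes. Without near-identical family members the class I median rested on 3. The class II median lay above the class I median by 0.39 and above the processing median by 0.63, and these gaps do not move when an array is rescaled as a whole. Over 13 alternatives the first gap ran from 0.07 with quantile normalization to 0.87 with no filter on dim probes, and the second from 0.49 to 1.09. The class I median lay above that of processing by 0.24, and by 0.04 to 0.41 over the alternatives. The sign of each list's own median is less firm. On the spike-in scale every difference was 1.0 higher, and the processing median was 0.70. There 10 of the 24 members changed sign, among them HLA-C, HLA-E, HLA-F and TAP1, which were above 0. The class I median changed sign between alternatives.

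**Figure D4:**
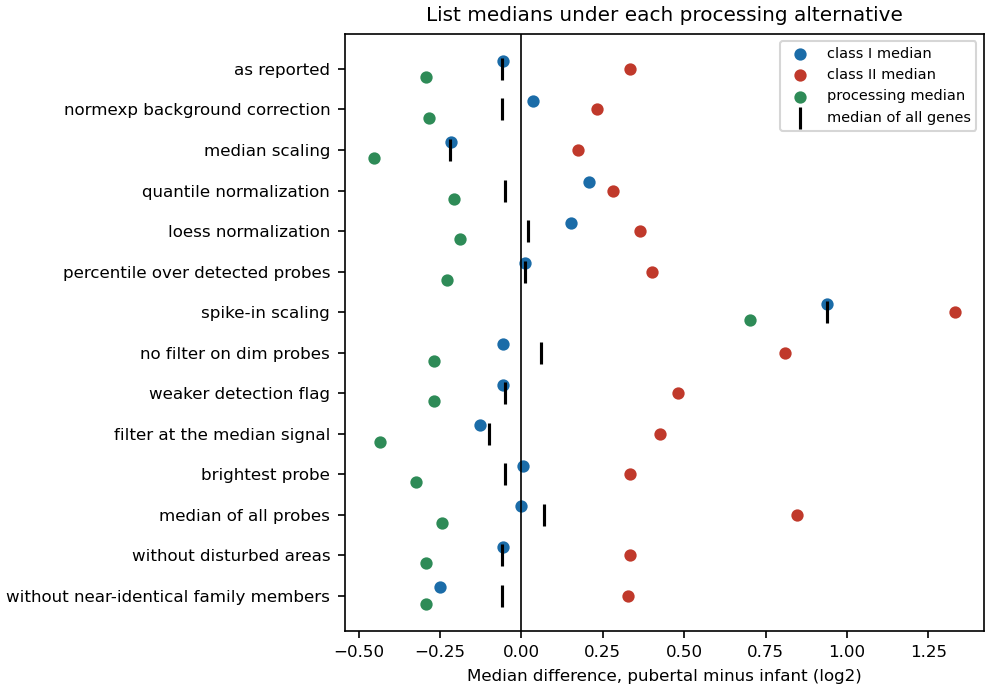
Median difference, pubertal minus infant on the log2 scale, of the class I, class II and processing lists (coloured points) and of all genes measured (black tick) as reported and under each of 13 processing alternatives. In each row the class II point lies to the right of the class I and processing points, and on the spike-in scale all of them lie to the right of 0.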

How the data were processed

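The authors' deposited values are spot intensity values from Agilent Feature Extraction 10.5.1.1, background-subtracted and detrended within each array with surrogates for low values, per the file headers. No scaling between arrays is recorded. The design is a human one on hg18. Both arrays share a slide and a scan, per the file headers. Outlier spots on either array (173 gene spots) were left out, log2 was taken, and the array's 75th percentile (406.7 pubertal, 382.4 infant) subtracted. Gene values are means over probes well above background on both arrays. For a probe detected on 1 array, the size of the difference was bounded from below, setting the dim side to its array's lowest detected signal (-4.29 pubertal, -4.36 infant) or to its own signal, whichever was higher. Errors come from the deposited error estimates. The number of arrays limits the precision.

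Named genes are all 31 members and, of other lists, those past 2-fold and the 3 largest, except 1 gene that is not reported here. A few others were named after their values were seen. Members and lists were chosen with earlier results of these data known. Of the 31 names, 14 occur in the macaque gene tables and 12 more with the MAMU prefix; HLA-C, HLA-G, HLA-DRB3, HLA-DRB4 and HLA-DPB1 were not matched. Python 3.11.15 was used, with limma 3.58.1 for normexp. The gene functions were tested on simulated data. The 13 alternatives concern background correction, scaling, filters, probes and disturbed areas of the slide (773 spots whose neighbours differ strongly in the same direction), with 1.5- and 4-fold as other thresholds. Loess used a span of 0.3 and normexp an offset of 50.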

Additional observations from a re-analysis of the deposited data

How the results depend on the processing

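The class I median of -0.06 became -0.22 with median scaling, 0.21 with quantile and 0.15 with loess normalization, 0.94 on the spike-in scale and -0.25 without near-identical family members. The class II median of 0.33 became 1.33 on the spike-in scale, 0.81 with no filter on dim probes and 0.85 with the median of all probes. The processing median of -0.29 became 0.70 on the spike-in scale. All other medians stayed within the scanner error of these values.

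Of 24 members, 4 were at least 2-fold higher as reported, 2 with normexp (3.88% of all genes) and 1 at 4-fold (1.67%). On the spike-in scale there were 12 (45.5%, so about the background). With no filter (9.68%) or the median of all probes (9.57%) there were 7 of 31. The filter at the median signal left 14 members and gave 0 (4.66%), but it did not measure HLA-DQB1, HLA-DRB3 and HLA-DRB4. Leaving out near-identical family members left 17 and gave 1 (7.30%), without HLA-DRB3, HLA-DRB4 and HLA-G. The calls for genes left out could not recur there. Of members at least 2-fold lower, 2 as reported, there was 1 with normexp (3.99% of all genes), loess (5.38%), the percentile over detected probes (5.43%) or the spike-in scale (0.87%). There was also 1 with no filter (6.91%), the filter at the median signal (6.19%), the median of all probes (6.90%) or 4-fold (0.86%). With the weaker detection flag there were 4 of 29, against 8.01% of all genes. Normexp took HLA-DRB4 to 0.69, HLA-G to 0.58 and HLA-DOB to -0.42. HLA-G was -0.0017 with the brightest probe or the filter at the median signal, which keep its bright probe alone. HLA-DQB1 (1.79 to 3.97), HLA-DRB3 (1.32 to 2.93) and IFI30 (-2.37 to -1.21) stayed past 2-fold in each alternative that measured them. The cause of the other moves was not tested. Leaving CD163 out of the macrophage sum and rerunning the proteasome gaps were chosen after seeing the data.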
